A study of Mus musculus with 12 samples.

Results

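A set of 30 genes of homologous recombination, the Fanconi pathway and the DNA damage checkpoint were followed through drug-driven growth of the mouse liver, with and without Yap1 in hepatocytes. A member was taken from the probe sets, groups of short probes that read 1 transcript, to which the platform annotation gives that gene's symbol alone, and where a gene had several the one with the highest mean log2 signal over the 12 arrays was used. Of the 30 listed genes, 29 had such a probe set, among 18193 genes in all. Xrcc2, a recombination gene, is not analysed here. The 29 genes have 67 probe sets, 9 of them with 1 each and 20 with 2 or more.

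All mice were females of 8 to 12 weeks with both Yap1 alleles floxed. KO mice received AAV8.TBG.PI.Cre.rBG and WT controls AAV8.TBG.PI.eGFP.WPRE.bGH8, and 10 days later TCPOBOP, a compound that activates the receptor CAR and makes hepatocytes divide, was given once at 3 mg/kg in corn oil by gavage. The TBG promoter limits Cre to hepatocytes, so other liver cells keep Yap1. The arrays are 2 KO at day 0, 1 pool of KO RNA at day 1, 3 KO at day 2, 2 WT at day 0, 1 pool of WT RNA at day 1 and 3 WT at day 2. Day 0 mice had received AAV8 and nothing else, and no group was gavaged with oil alone, so drug, gavage and time after day 0 cannot be told apart. Nothing in the labels says whether arrays of a group come from separate mice, so p-values measure only the spread between arrays. In whole liver, fewer cells of a type and less RNA per cell cannot be told apart.

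When both strands of DNA break, homologous recombination copies the lost sequence from the sister chromatid. BRCA1 with BARD1 prepares the break, PALB2 and BRCA2 act next at the single-stranded end, and RAD54 and RAD51AP1 help that end invade the copy. The Fanconi pathway unhooks crosslinks between the strands: a core complex attaches ubiquitin to FANCD2 and FANCI. ATR, recruited to stalled replication forks and switched on by TOPBP1, activates CHEK1 with the help of Claspin (Clspn), while ATM activates CHEK2 at broken ends. Many of these genes are expressed mainly in dividing cells, and the resting liver holds few of those. Many are transcribed under E2F factors, which act at the G1/S step of the cell cycle.

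Promoter sequence was available for 26 of the members (RefSeq, GRCm38.p6, 250 bases before to 50 after the annotated start, 300 bases in all; the first listed start was used). An E2F word (TTTGGCGC, TTTCCCGC, TTTCGCGC or TTTGCCGC, on either strand) was present in 7 of 26 windows, or 26.9%, against 510 of 17491 protein-coding promoters, or 2.92%. The 7 genes were Bard1, Brca2, Chek2, Clspn, Fancg, Msh6 and Topbp1. The CHR word TTTGAA stood in 3 of 26 (11.5%, against 16.5% of all) and CCAAT in 17 of 26 (65.4%, against 39.0%), both counted on either strand. A word in a window is a description of the letters, not a binding site. The windows of 4 genes that rose on day 2 by the tests below follow (Topbp1 on its second probe set only). Each is on the plus strand and written 5′ to 3′, with any E2F word in capitals. Eme1 and Rad54l, each also called in 1 genotype below, have windows with no E2F word, which are not printed.
Atr, chr9:95857347-95857646, with no E2F word: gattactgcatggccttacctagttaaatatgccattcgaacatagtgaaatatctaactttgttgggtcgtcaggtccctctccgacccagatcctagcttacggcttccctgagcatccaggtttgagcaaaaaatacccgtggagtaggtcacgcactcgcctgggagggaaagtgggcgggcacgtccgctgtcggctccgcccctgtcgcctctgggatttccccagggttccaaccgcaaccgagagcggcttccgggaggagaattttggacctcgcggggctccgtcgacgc
Brca2, chr5:150522371-150522670, with TTTCCCGC on the opposite strand starting at base -168 from the start: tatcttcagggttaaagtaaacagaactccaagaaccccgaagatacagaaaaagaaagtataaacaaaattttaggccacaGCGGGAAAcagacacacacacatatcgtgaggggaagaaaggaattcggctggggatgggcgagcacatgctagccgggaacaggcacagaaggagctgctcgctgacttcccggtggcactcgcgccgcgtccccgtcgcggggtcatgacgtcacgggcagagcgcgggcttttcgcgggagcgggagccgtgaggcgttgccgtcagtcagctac
Msh6, chr17:87974800-87975099, with TTTCCCGC on the same strand at base 16: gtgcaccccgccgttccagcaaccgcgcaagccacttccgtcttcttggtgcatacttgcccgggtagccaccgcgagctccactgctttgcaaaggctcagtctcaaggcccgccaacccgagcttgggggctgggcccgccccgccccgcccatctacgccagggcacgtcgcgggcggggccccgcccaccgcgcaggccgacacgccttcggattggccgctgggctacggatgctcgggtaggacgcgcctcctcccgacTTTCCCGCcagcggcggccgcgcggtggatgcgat
Topbp1, chr9:103305077-103305376, with TTTCGCGC on the opposite strand at base -129: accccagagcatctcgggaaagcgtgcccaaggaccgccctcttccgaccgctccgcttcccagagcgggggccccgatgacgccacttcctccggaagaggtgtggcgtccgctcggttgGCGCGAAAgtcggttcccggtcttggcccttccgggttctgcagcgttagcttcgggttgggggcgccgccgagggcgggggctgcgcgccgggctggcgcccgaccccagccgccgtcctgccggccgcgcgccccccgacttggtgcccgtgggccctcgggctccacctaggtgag
Atr and Msh6 both rose in WT livers, and only the Msh6 window of these 2 holds an E2F word. Bard1, Chek2, Clspn and Fancg hold one and were not called in either genotype on the probe set used here.

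Signals are MAS5 intensities as the authors scaled them, so a value can be compared between arrays for 1 probe set and not between genes. The 12 array medians lay between 231.6 and 277 units. Of the 29 members, 10 were above their array's median on all 12 arrays, 27 on 2 or more and 2 (Bard1 and Rad54b) on none. The highest signal stayed under 1000 in 24 members and reached 1000 or more in 5. Yap1 itself was read at 449.6 to 796.7 units on the 6 KO arrays and 999.2 to 1306.3 on the 6 WT arrays, with no overlap. Its log2 difference, KO minus WT, was -0.92 ± 0.17 at day 2 (adjusted p = 0.0137) and -1.02 ± 0.20 at day 0 (adjusted p = 0.151). Whether its probes lie in the deleted part is not known here. Throughout, a difference is on the log2(signal + 16) scale, ± is the standard error from limma, 3 arrays stand at day 2 and 2 at day 0, and a gene is called at an adjusted p under 0.05 over all 18193 genes.

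On day 2 after TCPOBOP, 3 of the 29 members were higher than at day 0 in KO livers (Atr, Brca2 and Rad54l) and 5 in WT livers (Atr, Brca2, Chek1, Eme1 and Msh6), and none was lower in either. The called share was 10.3% of members in KO livers against 2.96% of all genes called higher, and 17.2% in WT livers against 5.18%. The members were chosen with earlier results of these data known, so the shares in this paragraph are descriptions and no independent test. In either direction, 6.17% of all genes were called in KO and 8.65% in WT. In each genotype 12 members (41.4%) had every day 2 array above every day 0 array, against 20.4% of all genes in KO and 17.1% in WT. The median member difference was 0.33 in KO livers (all genes 0.04) and 0.23 in WT livers (all genes -0.10), with 22 of 29 members above 0 in KO and 21 of 29 in WT. In KO livers the differences ran between -0.53 (Xrcc3) and 1.80 (Rad54l), and in WT livers between -0.95 (Bard1) and 2.46 (Chek1).

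**Figure D1:**
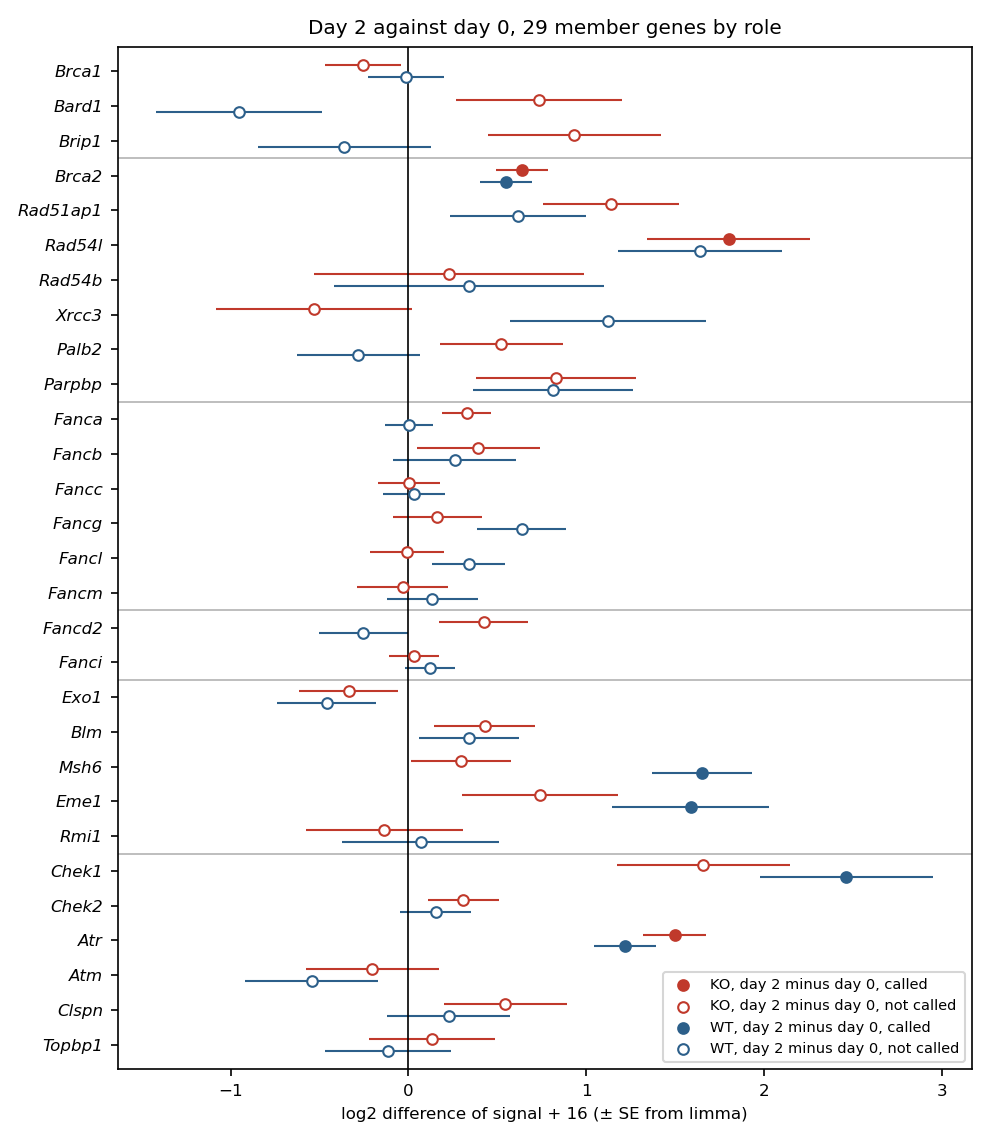
Log2 difference of signal + 16, day 2 minus day 0 (x axis), for the 29 members grouped by role (y axis), with KO above WT in each row, bars at ± the standard error from limma and filled points for genes called. The filled points are Brca2, Rad54l and Atr in KO and Brca2, Msh6, Eme1, Chek1 and Atr in WT, and most open points lie within 1 unit of 0.

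Among the checkpoint genes, Atr rose in both genotypes and Chek1 in WT livers. Atr, the kinase that senses stalled replication forks, read 445.9 and 342.9 units at day 0, 739.3 in the day 1 pool and 1190.1, 1144.9 and 1066.6 at day 2 in KO livers. In WT livers it read 451.8 and 368.9 at day 0, 987.3 in the pool and 956.1, 1085.6 and 884.3 at day 2. Every day 2 array lay above every day 0 array in both genotypes. Atr rose by 1.50 ± 0.18 in KO (2.82-fold, adjusted p = 0.000644) and by 1.22 ± 0.18 in WT (2.33-fold, adjusted p = 0.00152), and both calls held when any 1 of the 10 day 0 and day 2 arrays was left out. Averaged over its 3 probe sets, Atr gave 1.04 in KO (adjusted p = 0.103) and 0.69 in WT (adjusted p = 0.249), and neither call was kept.

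Chek1, the kinase that ATR activates to hold back the cell cycle, read 23.1 and 49.1 units at day 0, 409.9 in the day 1 pool and 265.9, 94.7 and 113.3 at day 2 in KO livers. The WT livers read 51.8 and 58.3 at day 0, 459 in the pool and 310, 489.3 and 347.6 at day 2. The day 2 arrays were above the day 0 arrays in both genotypes, and all 3 KO arrays at day 2 were below all 3 WT arrays. The WT difference was 2.46 ± 0.49 (adjusted p = 0.00998) and the KO difference 1.66 ± 0.49 (adjusted p = 0.0797, not called). The WT call was lost without either WT day 0 array, at an adjusted p of up to 0.078. Because day 0 signals were under 64 units, no fold is given. Averaged over its 5 probe sets, Chek1 gave 0.76 in WT (adjusted p = 0.16).

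The other checkpoint kinases showed no call. Atm, the kinase activated at broken ends, read 305.5 and 485.5 at day 0, 50.8 in the pool and 369.5, 260.8 and 381.6 at day 2 in KO livers. WT livers gave 394.4 and 422.8 at day 0, 223.7 in the pool and 433.9, 232.9 and 204.7 at day 2. Its groups overlapped, and the KO pool was the lowest array. Chek2, which ATM activates, read 481.3 and 588.3 at day 0, 613.9 in the pool and 727.7, 711.9 and 561.5 at day 2 in KO livers. In WT livers the values were 518.5 and 436 at day 0, 717.5 in the pool and 463.8, 572.4 and 563.7 at day 2, so day 0 and day 2 overlapped in both genotypes. Its differences were 0.31 ± 0.20 in KO (adjusted p = 0.458) and 0.15 ± 0.20 in WT (adjusted p = 0.71). Clspn, the adaptor between ATR and CHEK1, gave 0.54 ± 0.35 in KO and 0.23 ± 0.35 in WT, neither of them called.

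**Figure D2:**
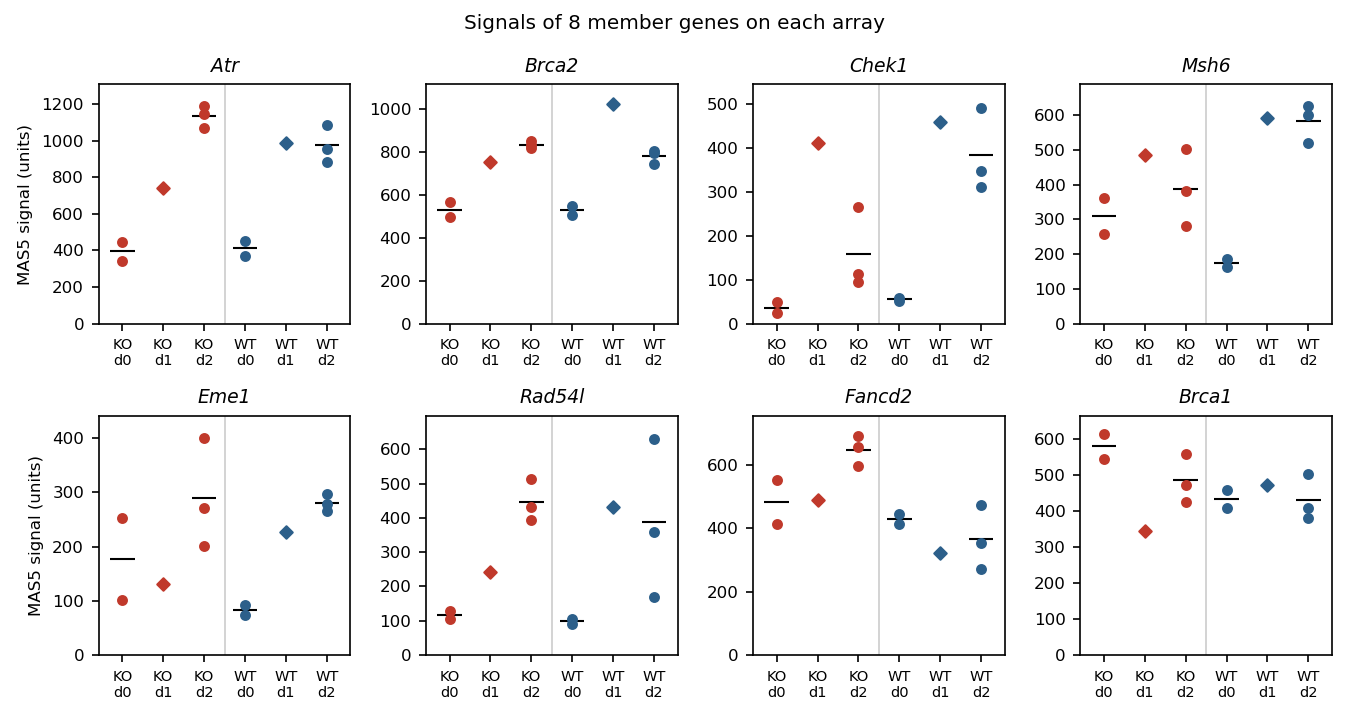
MAS5 signal in units (y axis, from 0) on each of the 12 arrays for 8 members, with KO left of WT and days 0, 1 and 2 in order; circles are single arrays, diamonds the day 1 pools and bars the group means. Atr and Brca2 are higher at day 2 in both genotypes, Msh6 day 2 arrays span 280.4 to 502.6 in KO and 518.8 to 626.5 in WT, and Fancd2 day 2 arrays span 596.9 to 689.3 in KO and 270.7 to 472.5 in WT.

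Among the genes of strand invasion, Brca2, which acts on the single-stranded end of a break, changed by the smallest amount of the called members and with little spread. It read 494.9 and 566 units at day 0, 753.4 in the pool and 847.7, 817 and 833.1 at day 2 in KO livers. The WT arrays gave 507.2 and 548.9 at day 0, 1023.7 in the pool and 743.3, 801.2 and 795.3 at day 2. No day 2 array reached down to a day 0 array. Brca2 rose by 0.64 ± 0.15 in KO (1.56-fold, adjusted p = 0.0277) and by 0.55 ± 0.15 in WT (1.46-fold, adjusted p = 0.0422). Left-out arrays moved these adjusted p values to between 0.0369 and 0.111 in KO, where the call was lost without KO day 0 replicate 1 or any KO day 2 array, and between 0.0311 and 0.219 in WT, where it was kept in 2 of 10 cases, without either KO day 0 array. Neither call was kept in a fit to only the arrays compared, at an adjusted p of 0.0871 in KO and 0.102 in WT.

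Rad54l, a motor protein that helps the broken end invade the intact copy, read 104.1 and 129.2 units at day 0, 243.1 in the pool and 431.6, 394.2 and 513.3 at day 2 in KO livers. WT livers gave 90.8 and 106 at day 0, 430.5 in the pool and 169.4, 630.6 and 360.2 at day 2. All day 2 arrays were above all day 0 arrays, and the 3 WT arrays at day 2 were far apart. The KO difference was 1.80 ± 0.46 (3.48-fold, adjusted p = 0.0456) and the WT difference 1.64 ± 0.46 (3.12-fold, adjusted p = 0.0521, not called). The WT difference was called under quantile normalization (1.76, adjusted p = 0.0351) and without WT day 2 replicate 1 (2.11, adjusted p = 0.0086). The KO call was kept in 2 of 10 cases, without WT day 2 replicate 1 or 2, and without any of the other arrays it was lost, at an adjusted p of up to 0.158. The other 3 Rad54l probe sets gave -0.14, -0.61 and 0.31 in KO and 1.33, 1.97 and -0.22 in WT, and the mean over all 4 gave 0.34 in KO (adjusted p = 0.699).

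The remaining 5 measured genes of this group did not pass the test in either genotype. Rad51ap1, which stimulates strand invasion, gave 1.14 ± 0.38 in KO (adjusted p = 0.126) and 0.62 ± 0.38 in WT (adjusted p = 0.388), with all day 2 arrays above all day 0 arrays in each. The other Rad51ap1 probe sets gave 0.83, 0.63 and 0.68 in KO and 0.93, 1.66 and -0.56 in WT. Xrcc3, another gene of break repair, gave -0.53 ± 0.55 in KO and 1.12 ± 0.55 in WT. Parpbp, which restrains recombination in human cells, gave 0.83 ± 0.45 in KO and 0.81 ± 0.45 in WT. Palb2 gave 0.52 and -0.28, and Rad54b, whose signal was below every array median, 0.23 and 0.34.

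Within the BRCA1 complex no gene was called on the probe set used for it. Brca1 read 612.7 and 545.3 units at day 0, 345.4 in the pool and 423.9, 471.4 and 559.2 at day 2 in KO livers. The WT values were 457.3 and 407.5 at day 0, 471.2 in the pool and 381.4, 501.5 and 408.8 at day 2. The days overlapped in both genotypes, with differences of -0.26 ± 0.21 in KO and -0.01 ± 0.21 in WT. Its partner Bard1 gave 0.73 ± 0.47 in KO and -0.95 ± 0.47 in WT, at signals between 14.7 and 124.7 units. The helicase Brip1 gave 0.93 ± 0.49 and -0.36 ± 0.49.

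None of the 8 Fanconi genes was called in either genotype. Fancd2, which the core complex marks with ubiquitin, read 413.2 and 551.7 units at day 0, 488.7 in the pool and 596.9, 689.3 and 654.4 at day 2 in KO livers. In WT livers it read 443.2 and 412.7 at day 0, 321.6 in the pool and 352.4, 472.5 and 270.7 at day 2. The 3 KO arrays at day 2 were above all other arrays of either genotype. Its day 2 minus day 0 differences were 0.42 ± 0.25 in KO (adjusted p = 0.411) and -0.25 ± 0.25 in WT (adjusted p = 0.615). Its partner Fanci gave 0.03 ± 0.14 in KO and 0.12 ± 0.14 in WT. The 6 core genes gave differences between -0.03 (Fancm) and 0.39 (Fancb) in KO and between 0.00 (Fanca) and 0.64 (Fancg) in WT.

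Among nucleases, helicases and the mismatch sensor, 2 of 5 genes rose in WT livers. Msh6, part of a complex that recognises mismatched bases, read 258.2 and 360.4 units at day 0, 486.3 in the pool and 502.6, 382.3 and 280.4 at day 2 in KO livers. The WT livers read 185.7 and 162.8 at day 0, 592.2 in the pool and 626.5, 518.8 and 601.7 at day 2. Day 0 and day 2 overlapped in KO and were wide apart in WT. The WT rise was 1.65 ± 0.28 (3.14-fold, adjusted p = 0.00423), a call that held without any 1 of the 10 arrays, and the KO difference was 0.29 ± 0.28 (adjusted p = 0.648).

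Eme1, the partner of the MUS81 nuclease that cuts joined DNA molecules, read 252.7 and 100.6 units at day 0, 131.4 in the pool and 271.5, 200.3 and 399.6 at day 2 in KO livers. In WT livers the values were 92.8 and 73.6 at day 0, 227.6 in the pool and 266.1, 279.2 and 297 at day 2. The days overlapped in KO and not in WT. The WT rise of 1.59 ± 0.44 (3.00-fold) stood at the threshold (adjusted p = 0.0499) and was kept in 2 of 10 cases, without either KO day 0 array, while the KO difference was 0.74 ± 0.44 (adjusted p = 0.413). Without a KO day 2 array or any WT array the Eme1 call was lost, at an adjusted p of up to 0.241, and it was lost with a pseudocount of 64 (adjusted p = 0.0551) and with only the arrays compared (adjusted p = 0.0562). Exo1, a nuclease that trims broken ends, gave -0.34 ± 0.28 in KO and -0.46 ± 0.28 in WT. The helicase Blm and its cofactor Rmi1 gave 0.43 and -0.13 in KO and 0.34 and 0.07 in WT.

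Between the genotypes no member was called in limma's test at either day. At day 2, 5 of 29 members had an unadjusted p under 0.05 (17.2%, against 23.8% of all genes), and 5.99% of all genes were called. Every KO array lay apart from every WT array in 8 members, 4 higher and 4 lower, or 27.6%, against 31.5% of all genes, so the members' share was no larger than that of all genes. The median member difference, KO minus WT, was 0.09, the same as over all genes. Under quantile normalization these medians were -0.02 and 0.04, and centring each array moved that of all genes to -0.09.

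The 5 members were Fancd2, higher in KO livers, and Chek1, Xrcc3, Msh6 and Fancl, lower in them. Fancd2 differed by 0.83 ± 0.22 (1.78-fold, adjusted p = 0.056) and Chek1 by -1.30 ± 0.44 (adjusted p = 0.106). Xrcc3 read 233.9, 147 and 65 units in KO livers at day 2 and 387.2, 314.6 and 331.4 in WT livers, a difference of -1.27 ± 0.49 (adjusted p = 0.15). Fancl, the ubiquitin ligase of the core complex, read 456.6, 515 and 670.1 in KO and 710.8, 733.7 and 824.5 in WT, a difference of -0.47 ± 0.18 (adjusted p = 0.153). The second Fancl probe set went the other way, at 1.42, with 36.6, 74 and 90 units in KO and 16.8, 8.3 and 16.6 in WT. The other probe sets of Fancd2 gave 0.38, 0.46 and 1.13, that of Xrcc3 -0.83, and those of Chek1 -1.06, -0.36, 0.12 and -0.10. None of these other probe sets was called. Msh6 differed by -0.60 ± 0.25 (adjusted p = 0.179). In all 5 the 3 KO arrays lay on 1 side of the 3 WT arrays.

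At day 0, before TCPOBOP, 2 members had an unadjusted p under 0.05 (6.90%, against 7.31% of all genes), and 0.0495% of all genes were called. They were Msh6, at 0.76 ± 0.31 (adjusted p = 0.638), and Bard1, at -1.26 ± 0.51 (adjusted p = 0.638). The test of whether the day 2 change differed between KO and WT called 1.51% of all genes and no member, with 2 members at an unadjusted p under 0.05 (6.90%, against 17.9% of all genes). The change in KO minus the change in WT was -1.36 ± 0.40 for Msh6 (adjusted p = 0.113) and 1.68 ± 0.66 for Bard1 (adjusted p = 0.22). For Chek1 it was -0.80 ± 0.69 (adjusted p = 0.576) and for Atr 0.28 ± 0.25 (adjusted p = 0.595). A member called in 1 genotype alone, such as Msh6, Chek1, Eme1 or Rad54l, is therefore not shown to differ between them.

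Day 1 was read from 1 pool of RNA per genotype, so the following differences have no replicate check and no test. On the probe set used for it, Chek1 read 409.9 units in the KO pool and 459 in the WT pool, against day 0 signals of 23.1 to 58.3 units, which are under the bound of 64 for giving a fold. Rad54b was as dim on most day 0 arrays. In the KO pool 3 of 29 members were more than 1 log2 unit above day 0 (Chek1, Rad54b at 1.92 and Rad51ap1 at 1.19), where 6.9% of all genes were, and 2 were more than 1 unit below (Atm at -2.59 and Topbp1 at -1.04), where 8.15% of all genes were. The second probe sets of these 2 genes went the other way, at 1.36 for Atm 1428830_at and 3.76 for Topbp1 1452241_at. The other Chek1 probe sets gave 1.49, -0.27, -0.34 and 0.83 in the KO pool, and those of Rad51ap1 1.22, 0.86 and -0.24. In the WT pool 6 members were more than 1 unit above day 0, where 7.25% of all genes were: Chek1, Rad54l at 1.97, Rad54b at 1.75, Msh6 at 1.68, Eme1 at 1.30 and Atr at 1.24. The other Rad54l probe sets gave -0.96, 2.27 and -0.33 there, and those of Atr -0.21 and 1.64. Those of Chek1 gave 2.64, -1.82, -0.48 and 0.67. Rmi1 was more than 1 unit below day 0 in the WT pool, at -1.50, where 8.18% of all genes were. Its other 4 probe sets gave 0.44, 1.16, 0.66 and -0.69. The median member difference from day 0 was 0.20 in the KO pool and 0.58 in the WT pool, against -0.06 over all genes in each.

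Set directly against each other, 7 of 29 members were higher in the KO pool than in the WT pool, and the median member difference was -0.41, against -0.01 over all genes. Atm (-1.84), Topbp1 (-1.52) and Bard1 (-1.37) were more than 1 unit lower in the KO pool, where 7.06% of all genes were. The second probe sets gave 0.02 for Atm, at 317.8 units in the KO pool and 313.8 in the WT pool, and -0.33 for Topbp1. Rmi1 was 1.50 higher, where 5.93% of all genes were more than 1 unit higher, and its other 4 probe sets gave -0.36, -0.72, 0.73 and 1.43. For Chek1, Brca2 and Msh6 the KO pool read 409.9, 753.4 and 486.3 units and the WT pool 459, 1023.7 and 592.2.

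Probe sets of the same gene often disagreed. Of the 20 members with 2 or more, the probe sets gave day 2 differences of both signs in 11 in KO livers and 14 in WT livers, and they lay more than 1 log2 unit apart in 9 and 11. In WT livers the 2 probe sets of Topbp1, the activator of ATR, were such a case. Its probe set 1458480_at, used above, gave 0.13 ± 0.35 in KO and -0.11 ± 0.35 in WT. Its other probe set, 1452241_at, read 10.2 and 49.5 units at day 0, 546.9 in the pool and 167.3, 173.7 and 137.7 at day 2 in KO livers. The WT arrays gave 19.5 and 19.1 at day 0, 689.9 in the pool and 379.8, 302 and 310.5 at day 2. There every later array was above every day 0 array, the pools were highest, and the 3 KO arrays at day 2 were below the 3 WT arrays.

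With each of the 34945 probe sets tested on its own, Topbp1 1452241_at rose by 2.08 ± 0.45 in KO (adjusted p = 0.0289) and by 3.29 ± 0.45 in WT (adjusted p = 0.00145). In that test 1.71% of all probe sets were called higher in KO and 3.91% in WT. At least 1 probe set was called higher for 3 of 29 members in KO (Atr, Brca2 and Topbp1), against 2.87% of all genes, and for 5 in WT (Atr, Brca1, Chek1, Msh6 and Topbp1), against 6.04%. Brca1 1424630_a_at read 9.8 and 21 at day 0, 17.5 in the pool and 62.7, 29.9 and 19.6 at day 2 in KO livers. The WT arrays gave 11.8 and 13.1 at day 0, 78.9 in the pool and 100.7, 58.8 and 117.8 at day 2. This probe set rose by 1.89 ± 0.43 in WT (adjusted p = 0.0281), at signals below every array median. A second Chek1 probe set, 1450677_at, gave 1.03 ± 0.66 in KO and 2.12 ± 0.66 in WT (adjusted p = 0.0963), while the other 3 gave -0.99 to 0.13 in KO and -0.62 to 0.11 in WT. The other 2 Atr probe sets gave 1.31 and 0.32 in KO and 0.19 and 0.66 in WT, none of them called.

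**Figure D3:**
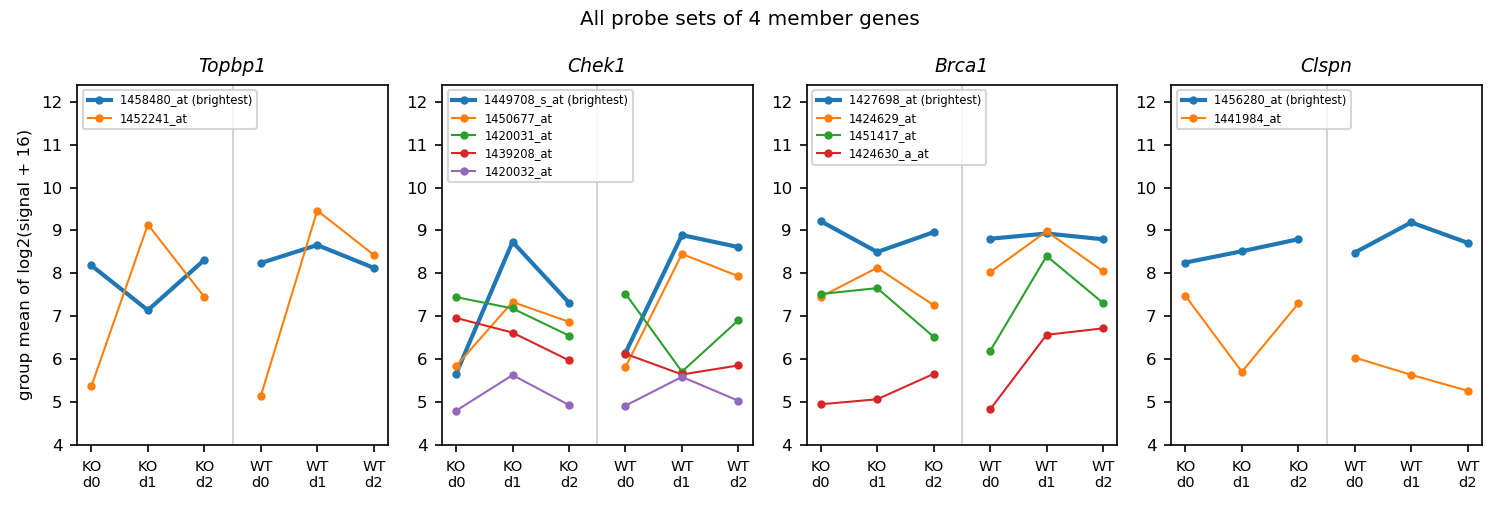
Group means of log2(signal + 16) (y axis, from 4) for all probe sets of Topbp1, Chek1, Brca1 and Clspn, with days 0, 1 and 2 in order and KO left of WT; the thick line is the probe set used for the gene and a lone array stands at day 1. Topbp1 1452241_at climbs at day 1 in both genotypes while 1458480_at does not, and only 2 of the 5 Chek1 probe sets are clearly higher at day 1 and day 2.

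The same pathways were followed beyond the 30 genes through 4 lists of related genes. Of 27 other recombination and Fanconi genes measured, none was called in KO livers and 1 in WT livers, Ercc4, part of the XPF-ERCC1 nuclease, which fell by 0.67 ± 0.18 (adjusted p = 0.0463). The list's median was 0.19 in KO and -0.13 in WT. At day 2 Ercc4 was higher in KO than in WT livers by 0.95 ± 0.16 (adjusted p = 0.0116), the only call in that list between genotypes.

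Of 24 other checkpoint and damage signalling genes, 1 rose in KO livers and 4 in WT livers, with medians of 0.15 and 0.20. The KO call was Wee1, a kinase that restrains CDK1, at 2.75 ± 0.44 (adjusted p = 0.0043). Its genotypes lay apart at day 0, at 79.5 and 255.3 units in KO and 789.9 and 385.3 in WT livers. The Wee1 difference, KO minus WT, was -1.82 at day 0 and 0.68 at day 2, neither of them called. In WT livers Wee1 changed by 0.25, which was not called. The WT calls were Dbf4, the activator of the CDC7 kinase, at 3.30 ± 0.37, Tipin, of the fork protection complex, at 2.71 ± 0.45, and Rpa1 and Rpa3, subunits of the protein that coats single-stranded DNA, at 1.26 ± 0.17 and 0.88 ± 0.18. At day 2 Rpa1 and Rpa3 were lower in KO than in WT livers, by -1.08 ± 0.15 (adjusted p = 0.0063) and -0.65 ± 0.16 (adjusted p = 0.044). None of 4 other mismatch repair genes was called in either genotype. Of 6 end joining genes, Prkdc, the catalytic subunit of DNA-PK, rose in WT livers by 2.44 ± 0.67 (adjusted p = 0.0488) and none was called in KO.

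Replication and division genes had larger median differences than the members. Of 12 genes of the MCM helicase and its loading, 5 rose in KO livers (median 0.80), while in WT livers 6 rose and Mcm10 fell (median 1.17). Mcm6, a helicase subunit, rose by 3.07 ± 0.73 in KO and 4.95 ± 0.73 in WT, and Mcm2 by 2.32 ± 0.26 and 2.16 ± 0.26. Of 8 proliferation markers, 7 rose in KO livers (median 1.71) and 8 in WT livers (median 3.15). Their summed signal was 2725.9 to 2785.5 units at day 0, 14286 in the pool and 7162.7 to 10570.9 at day 2 in KO livers, against 2942.3 to 3365.1 at day 0, 26677.3 in the pool and 22035.6 to 24394.3 at day 2 in WT livers. A sum weighs bright genes most: Pcna and Rrm2 gave 8467.5 and 10394.2 of these units in the WT pool. Ccnb2 did not peak on day 1 in WT livers, with 1031.1 units in the pool and 2784.7, 2436 and 2510 at day 2. At day 2, 6 of the 8 markers were lower in KO than in WT livers, with a median of -1.48. The summed signal was thus lower in KO livers on day 1 and day 2. Of all 29 members, 7 were higher in the KO pool than in the WT pool at day 1. At day 2, 18 of 29 were higher in KO livers, with a median of 0.09, as over all genes. The part of proliferation in the members' values was not tested.

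**Figure D4:**
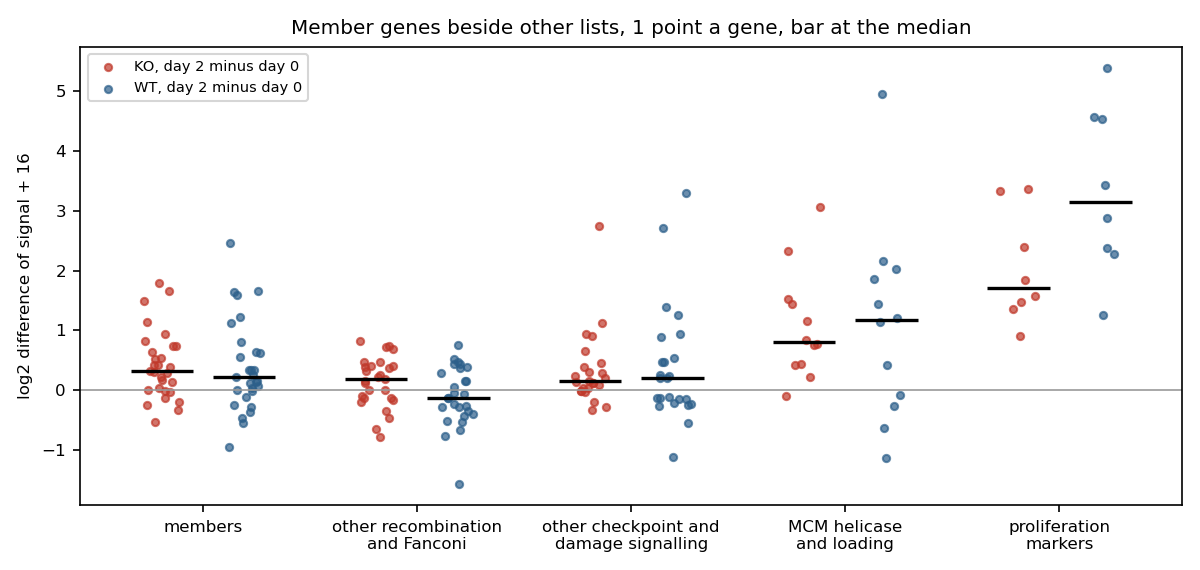
Log2 difference of signal + 16, day 2 minus day 0 (y axis), for each gene of the members and 4 other lists (x axis), KO left of WT, with a bar at the median of each list. Member medians are 0.33 in KO and 0.23 in WT, and those of the proliferation markers 1.71 and 3.15.

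Markers of liver cell types were read on the same arrays, and none was listed at 0. Of 7 hepatocyte markers, 6 fell in KO livers, of which Ttr changed sign under quantile normalization, and 2 rose in WT livers. The WT rises were 0.69 for Alb and 0.54 for Apoa1, which became 0.13 and 0.01 under quantile normalization. The summed signal of the 7 markers was 183984 to 232592 units in KO livers at day 2 and 314279 to 371440 at day 0, and 323306 to 366879 in WT livers at day 2 and 271214 to 271246 at day 0. Alb, Ttr and Apoa1, with the highest signals of the 7, weigh most in that sum. After quantile normalization Alb, the albumin gene, differed by -0.10 in KO in place of -0.84, and Ttr by 0.03 in place of -0.72. The highest signal on an array was 48217.1 to 67456.6 units on the KO arrays at day 2 and 71164.8 to 116918 on the other 9. The member medians after quantile normalization were 0.33 in KO and 0.33 in WT. Clec4f, 1 of 8 Kupffer cell and macrophage markers, fell in KO livers, and Clec4g, 1 of 7 sinusoidal endothelial markers, in WT livers. Of 7 stellate cell markers, Reln fell in both genotypes and Lrat in WT livers. Alas2, 1 of 3 erythroid markers, fell in KO livers, and none of 4 cholangiocyte, 6 lymphocyte and 4 neutrophil markers was called. The part of these cell types in the members' values was not tested.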

How the data were processed

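Total RNA of whole liver was hybridized to 12 Affymetrix arrays. The authors deposited intensities from MAS5, a version of which the submitters' processing notes do not give, with every array scaled to a common target. Precision is limited by the number of arrays, since arrays have no read depth. Each intensity was analysed as log2(value + 16). Probe sets were named through the platform annotation: 34945 name 1 gene, and 932 that name several were left out.

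In R 4.3.3, limma 3.58.1 (lmFit, eBayes with trend and robust) was fitted to 6 group means over all 12 arrays, two-sided, with Benjamini-Hochberg adjustment over 18193 genes. No filter on low values was applied, because dim members would pass one only through the groups in which they are high. Folds are omitted where the lower group has an array under 64 units. The fit was tested on simulated data. Members called in any comparison, and Brca1, Brca2, Atm, Atr, Chek1, Chek2 and Fancd2, are given on every array, and up to 4 called genes per other list are named. The 5 members with an unadjusted p under 0.05 between genotypes, and the extra probe sets, were picked after their values were seen. The members and lists were chosen with earlier results of these data known.

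Alternatives were quantile and cyclic loess normalization, arrays centred on their median, a pseudocount of 64 or none, filters (above the array median on 2 or more arrays, or a mean above the median of all genes), the mean over probe sets, plain eBayes (neither trend nor robust), array weights, a fit to the compared arrays alone, a block for the replicate number, adjusted p under 0.01 or 0.1, and leaving out each replicate. Choosing a gene's probe set by the type of its sequence record and testing every probe set were added after the values were seen. Some listed genes without a probe set of their own are not analysed here. Python 3.11.15 with numpy 2.4.6 and pandas 2.3.3 made the tables, and matplotlib 3.10.9 the figures. Promoters come from RefSeq on GRCm38.p6.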

Additional observations from a re-analysis of the deposited data

Results flagged for a closer look

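The day 2 change differed between KO and WT livers, by limma's test of the difference itself, in 4 genes of the replication and proliferation lists and in no member. The change in KO minus the change in WT was 1.71 for Mcm4, -1.20 for Mcm7, -2.04 for Ccnb2 and -1.47 for Pcna, on the log2 scale. The Mcm4 genotypes lay apart at day 0, at 195.9 and 311 units in KO and 901.8 and 917.8 in WT livers. Their difference, KO minus WT, was -1.81 at day 0 and -0.10 at day 2, neither of them called. The same test called 3 hepatocyte markers, Alb at -1.54, Ttr at -0.94 and Apoa1 at -1.37, which under quantile normalization were -0.23, 0.27 and -0.09.

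Of the probe sets not used for the members' main values, those of 3 genes were called when every probe set was tested. Topbp1 1452241_at was higher at day 2 than at day 0 by 2.08 in KO livers and 3.29 in WT livers. Brca1 1424630_a_at was higher at day 2 than at day 0 by 1.89 in WT livers. Clspn 1441984_at was 2.03 higher in KO than in WT livers at day 2 (adjusted p = 0.0341). It read 112.6, 201.4 and 123.6 units in KO livers and 5.4, 33.9 and 37.1 in WT livers. At day 0 it already read 160.3 and 163.8 in KO and 42.9 and 57.2 in WT livers, a difference of 1.44 that was not called. Its signal was above the array median on no array, and the probe set used for Clspn differed by 0.08 at day 2.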

How the results depend on the processing

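Member genes called on day 2 against day 0 in WT livers, 5 as reported, were 2 with the filter on the mean, which left 9 members, and 3 with only the arrays compared, with the replicate block, or at an adjusted p under 0.01. It was 6, with Rad54l added, under quantile normalization, cyclic loess, centring, no pseudocount, the filter on 2 or more arrays, array weights and an adjusted p under 0.1. It was 4 under pseudocount 64, the mean over probe sets, the choice by record and plain eBayes. The 4 with the mean over probe sets were Brca2, Eme1, Msh6 and Topbp1, and with the choice by record Atr, Brca2, Msh6 and Topbp1. Leaving out 1 array gave 2 to 5. In KO livers, 3 as reported, the count was 1 with the mean over probe sets, eBayes without trend and robust, array weights, the replicate block or an adjusted p under 0.01, 4 at an adjusted p under 0.1 (Chek1 added), and 1 to 3 without 1 array. The choice by record also gave 3 in KO livers, with Topbp1 in place of Rad54l. Between genotypes at day 2, 0 as reported, the count was 1 with either filter, array weights or an adjusted p under 0.1 (Fancd2) and with every probe set tested (Clspn), and 0 to 1 without 1 array (Fancd2, without WT day 2 replicate 2 or either KO day 0 array). At day 0 and for the difference in change it was 0 under all 26 alternatives. Rad54l in WT livers reversed to -0.22 with the probe set chosen by the type of its record, and was called under 7 of its 22 alternatives, at 1.61 to 2.11. Yap1 at day 2 lost its call with the mean over probe sets (-1.11, adjusted p = 0.0575), eBayes without trend and robust (-0.92, adjusted p = 0.0512) and when WT day 2 replicate 3 or KO day 2 replicate 1 or 2 was left out, and ranged between -1.09 and -0.81 without 1 array. The median differences of the day 1 pools were 0.25 to 0.30 in KO and 0.61 to 0.64 in WT under 3 other scalings. The cause of these changes was not tested. Arrays of the same replicate number did not deviate together (correlations between -0.024 and 0.037). With 2 or 3 arrays a group this check cannot exclude a pairing, and the labels state none. For the difference in change, centring moved the median of all genes from 0.10 to -0.08. A group of 2 or 3 arrays, and many members near or below the array median, limit what can be seen.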
